A study of Mus musculus with 16 samples.

Results

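The genes described here are 150 genes that were already transcribed in all 4 incompletely reprogrammed iHAC1-iPS clones at a level well above that of mouse embryonic fibroblasts (MEF), as they were in 2 mouse embryonic stem (ES) cell lines. They were chosen from the values themselves. For each gene the brightest probe over 16 arrays was kept. The gene had to be well above background in both ES lines and in all 4 iHAC1-iPS clones, and its score was the lowest of those 6 levels minus the level in MEF. The other 9 arrays entered only the choice of probe, and are called below the arrays that the rule did not use. Of 28095 genes with a probe on the array, 15306 passed the detection step, and the 150 with the highest scores were taken. Scores ran from 10.71 (Pou5f1) to 2.15 (Helb) on the log2 scale, with a median of 2.92. At the lower end the last members were D7Ertd715e (2.19), C79407 (2.17), Pdxk-ps (2.17), Dnmt3b (2.17) and Helb (2.15), and the first genes left out were Bend3 (2.15), Brca1 (2.14), 9630033F20Rik (2.14), NAP035051-1 (2.13) and Brca2 (2.13). Because MEF, ES and iHAC1-iPS values chose the members, their differences among those groups are a description and were not tested as findings.

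The study reprogrammed MEF into induced pluripotent stem (iPS) cells with human artificial chromosomes, which persist beside the host chromosomes and can be lost spontaneously. RNA was measured on 1-colour Agilent arrays. iHAC1 carries 2 copies of a cassette with Klf4, c-Myc, Sox2 and Oct4, each driven by the ubiquitous CAG promoter. iHAC2 adds 2 more Oct4 copies and a short hairpin RNA against p53 under the H1 promoter. MEF and the retroviral iPS cells, line 20D17, have 1 array each. ES cells are represented by TT2 and B6ES. The iHAC1-iPS group holds 1-A3, 1-B, 1-C3, 1-D6, each a clone of its own. Among iHAC2-iPS clones, 2-B1 gave rise to F-B1, 2-C6 to F-C5, 2-E to F-E4 and 2-N to F-N7, and the F lines, which no longer hold iHAC2, form the iHAC-free iPS group. Each iPS array is 1 clone and each ES array 1 line. The p-values therefore measure the spread between clones and lines, estimated jointly over all groups of a fit. The ES and iPS cells were kept on mitomycin C-treated MEF feeder layers, and fibroblast RNA can therefore come from the feeders. Levels below are log2 intensities with the 75th percentile of each array set at 0. In bulk RNA, fewer cells that transcribe a gene and less RNA per cell cannot be told apart.

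Reprogramming of fibroblasts passes through intermediate states in which some pluripotency genes are transcribed while others remain silent. Pou5f1 (Oct4), Sall4 and Nr0b1 encode transcription factors of the pluripotency network, and genes such as Fbxo15, Gdf3, Tdgf1 and Alpl are used as markers of undifferentiated cells. Mouse ES cells also depend on the breakdown of threonine by Tdh, which feeds glycine cleavage and one-carbon metabolism.

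Both ES lines exceeded MEF by at least the lowest member score, a 4.45-fold difference, at 1126 genes. Of these ES-high genes, 537 (47.7%) did so in none of the iHAC1-iPS clones, 174 in 1 clone, 170 in 2, 95 in 3 and 150 (13.3%), the members, in all 4. On the MEF array 103 members were well above background and 47 were not. For those 47 the upper bound of the MEF level is the lowest signal well above background on that array (-6.00), or the measured value where higher. A fold over MEF from this bound is written below as "at least". The scores and the MEF levels given below use the measured values. With the MEF level placed at the lowest signal well above background on that array, 143 members still exceeded MEF by 2-fold or more on each of the 6 arrays of the rule, and 6 did not (Ppp1r14d, Slc7a9, Cnpy1, ENSMUST00000098050, 4930500J02Rik and Rnf207). For the remaining member, Tdgf1, the MEF spot was flagged as an outlier by the scanner software. Its MEF level from that spot was -2.09, and it is not used below.

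**Figure D1:**
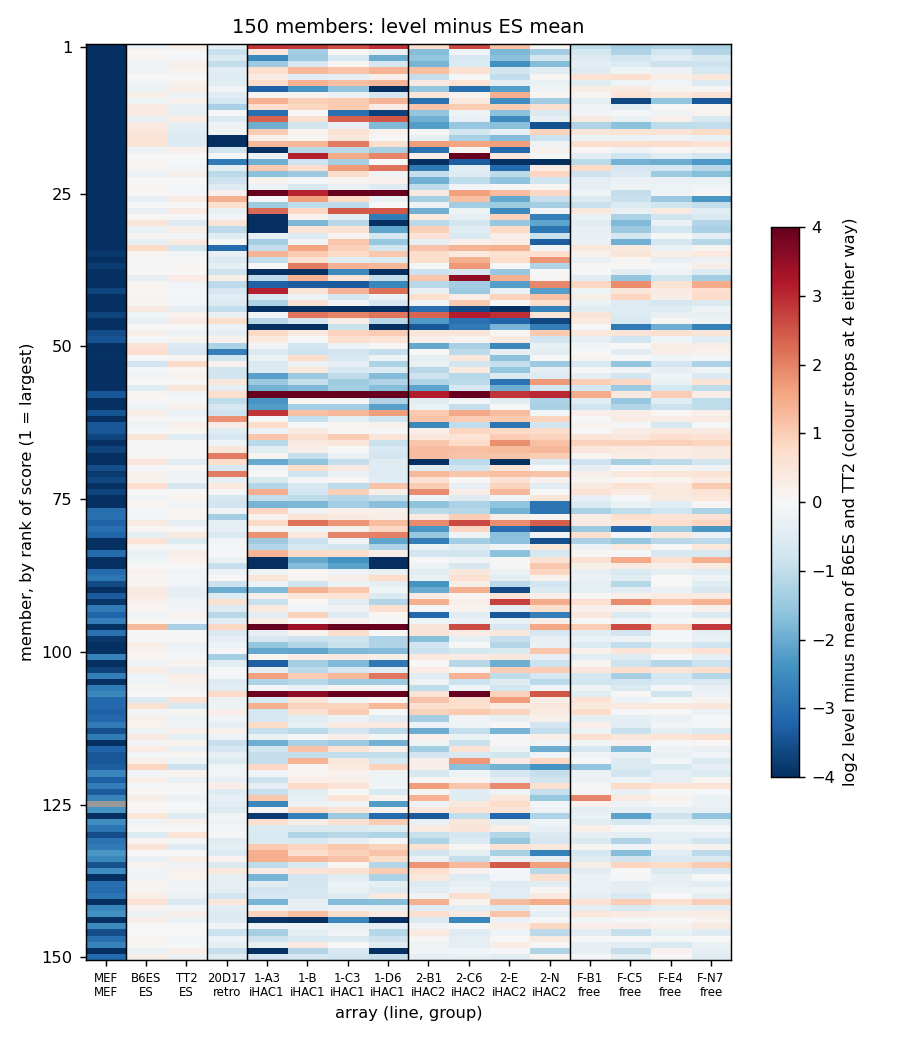
Level of each of the 150 members (rows, by rank of score) on each of the 16 arrays (columns, with line and group) minus the mean of the 2 ES lines, on the log2 scale. Colours stop at 4 in either direction, and the grey cell is the flagged MEF spot of Tdgf1. The MEF column is low throughout by the choice of members, the iHAC1-iPS and iHAC2-iPS columns hold members on both sides of the ES level, and the iHAC-free iPS columns lie nearer to it.

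The sequences upstream of the members were looked at for motifs of factors that act in these cells. RefSeq start sites (build GRCm38.p6) were found for 96 members, with 123 promoters of 300 bases, from 250 before to 50 after the start. The octamer ATGCAAAT, bound by Oct4 and other POU factors, was present on either strand in 2 of 123 member promoters (1.63%) and in 1.74% of all 32851 promoters. The Sox motif CATTGTT was present in 4 (3.25% against 3.78%), the E-box CACGTG in 14 (11.4% against 7.15%), the Esrrb-type motif TCAAGGTCA in 0 (0.423% of all) and the E2F-type motif TTTNGCGC in 0 (1.38% of all). The motifs were searched as single words, and the counts describe these windows only. The median GC content was 57.3% in member promoters and 52.7% in all promoters, and the CpG ratio (observed over expected) exceeded 0.6 in 45.5% and 35.8% of them. Both promoters with an octamer belong to Pim2, a serine/threonine kinase gene, and Pipox, the gene of a peroxisomal enzyme that oxidises sarcosine to glycine. They are shown with those of Cpsf4l, which holds an E-box, and Prtg, which holds none of the motifs, because the last 2 genes gave the clearest difference between iHAC2-iPS and iHAC-free iPS below. Each line gives the 250 bases before the start on the gene's own strand, with motif matches in capitals. The windows are chrX:7878056-7878305 (plus strand, Pim2), chr11:77893873-77894122 (minus strand, Pipox), chr11:113709527-113709776 (minus strand, Cpsf4l, 1 of its listed starts) and chr9:72807024-72807273 (plus strand, Prtg).
Pim2: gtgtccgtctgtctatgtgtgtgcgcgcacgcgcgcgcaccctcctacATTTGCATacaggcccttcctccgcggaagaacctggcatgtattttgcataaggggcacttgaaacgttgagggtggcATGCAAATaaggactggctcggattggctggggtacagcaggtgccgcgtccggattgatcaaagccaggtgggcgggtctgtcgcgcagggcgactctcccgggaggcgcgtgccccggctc
Pipox: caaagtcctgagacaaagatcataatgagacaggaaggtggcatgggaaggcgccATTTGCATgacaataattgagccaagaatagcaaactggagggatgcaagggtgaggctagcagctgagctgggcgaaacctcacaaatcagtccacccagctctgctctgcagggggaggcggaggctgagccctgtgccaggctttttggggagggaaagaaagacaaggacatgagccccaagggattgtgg
Cpsf4l: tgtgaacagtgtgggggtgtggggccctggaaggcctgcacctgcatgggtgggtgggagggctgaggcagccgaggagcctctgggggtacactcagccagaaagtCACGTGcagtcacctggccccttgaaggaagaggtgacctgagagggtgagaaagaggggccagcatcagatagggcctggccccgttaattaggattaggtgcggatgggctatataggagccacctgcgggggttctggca
Prtg: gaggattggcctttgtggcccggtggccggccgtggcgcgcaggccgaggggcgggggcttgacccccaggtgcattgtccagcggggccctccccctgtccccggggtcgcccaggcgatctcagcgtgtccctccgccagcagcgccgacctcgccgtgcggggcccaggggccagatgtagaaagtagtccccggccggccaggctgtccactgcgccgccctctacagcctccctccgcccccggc
The Pim2 promoter holds the octamer in both orientations, and its CpG ratio was 1.06. The Pipox promoter holds it once and had a CpG ratio of 0.14.

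The transcription factor genes were led by Pou5f1, a gene that the iHACs themselves carry. From qRT-PCR, the study reported more transgenic than endogenous transcript for the carried factors, Oct4 among them, in iHAC1-iPS and iHAC2-iPS cells. Whether the Pou5f1 probe also reads the cassette's transcript was not determined here. Its level was -7.15 in MEF, not well above background, 3.56 in B6ES, 4.00 in TT2 and 3.43 in 20D17. The iHAC1-iPS clones lay at 6.65, 6.57, 6.32 and 6.67, the iHAC2-iPS clones at 4.47, 6.41, 4.94 and 3.88, and the iHAC-free iPS lines at 2.77, 2.42, 2.55 and 2.51. The ES lines exceeded MEF at least 877-fold. The iHAC1-iPS clones were above the ES lines, and all 4 iHAC-free iPS lines were below them. Sall4, a zinc finger factor that keeps ES cells undifferentiated, was at 3.51 and 3.40 in ES cells and at 0.88, 2.00, 2.75 and 1.47 in iHAC1-iPS clones, from -8.07 in MEF (not well above background). Another Sall4 probe, well above background on all 6 arrays of the rule, gave a smaller ES minus MEF difference of 1.95 and a score of 1.05. Nr0b1, which encodes the orphan nuclear receptor Dax1, was at 3.42 and 3.82 in ES cells. It was at -1.36 in 1-A3 but between 2.28 and 2.55 in the other iHAC1-iPS clones, and in iHAC2-iPS clones it ranged from 0.46 (2-E) to 3.79 (2-N), so that clones of both groups were unequal. In iHAC-free iPS lines it lay between 3.48 and 3.73, next to the ES levels.

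Gbx2, Otx2 and Mybl2 were further transcription factors on the pluripotency list. Otx2, a homeobox factor of the primed state, was at -0.40 and -0.39 in ES cells and at 1.06, -1.17, 0.54 and -0.16 in iHAC1-iPS clones. Gbx2, a homeobox gene that responds to leukemia inhibitory factor signalling, was at 1.03 and 0.12 in ES cells and between -1.45 and 0.09 in iHAC1-iPS clones. Among the iHAC2-iPS clones Gbx2 split, with -4.41 in 2-B1 and -4.90 in 2-E, both not well above background, against -0.49 in 2-C6 and -0.01 in 2-N. Their iHAC-free derivatives F-B1 and F-E4 were at -0.27 and -0.46, within the range of all 4 iHAC-free iPS lines (-0.77 to -0.17). Mybl2, a cell cycle transcription factor, was at 4.98 and 4.63 in ES cells and between 2.74 and 3.06 in iHAC1-iPS clones, below the ES lines in all 4.

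Of the list of 30 pluripotency transcription factors, 28 were on the array and 27 were tested, 21 were ES-high and 6 were members. Of 4 reprogramming factors carried by the iHAC, Pou5f1 alone was a member.

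The marker genes of undifferentiated cells gave 8 members among 28 measured. Alpl, alkaline phosphatase, was at -3.23 in MEF and 3.82 and 3.87 in ES cells, and its iHAC1-iPS levels of 4.19, 3.43, 3.47 and 4.05 overlapped these. Gdf3, a TGF-beta family ligand, was at 2.34 and 2.21 in ES cells and at 2.68, 0.89, 2.33 and 1.96 in iHAC1-iPS clones. Fbxo15, an F-box gene that served as the reporter in early iPS work, was at 4.14 and 3.38 in ES cells. Its level was 3.75 in 1-B but 0.74, 0.78 and 0.01 in 1-A3, 1-C3 and 1-D6, so 1 clone alone reached the ES range. Lefty1, an inhibitor of Nodal, was at 4.98 and 4.89 in ES cells, 5.10 and 4.51 in 1-B and 1-C3, and 0.68 and 2.13 in 1-A3 and 1-D6. Tdgf1, the Nodal co-receptor Cripto, showed the same order, with 2.63 and 2.77 in 1-B and 1-C3 against 0.28 and 0.65 in 1-A3 and 1-D6, and 2.91 and 2.84 in ES cells. Slc2a3, a glucose transporter gene, was at 5.30 and 5.38 in ES cells, below them at 4.25 and 4.45 in 1-A3 and 1-D6, and above them at 5.69 and 5.78 in 1-B and 1-C3. Fut9, which encodes the enzyme that makes the SSEA-1 epitope, lay between -1.74 and -1.33 in iHAC1-iPS clones, above both ES lines (-1.98 and -1.77).

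The pair 1-A3 and 1-D6 was below the pair 1-B and 1-C3, without overlap, at 62 members and above it at 23. Over all probes tested the corresponding shares were 21.5% and 22.2%. Of the 976 other ES-high genes, 29.9% and 33.6% were well above background and at least 2-fold above MEF in 1-A3 and 1-D6. Their shares were 58.9% and 61.6% in 1-B and 1-C3, so a split of these pairs was not particular to the members. 1-A3 was the lowest of the 6 arrays of the rule at 50 members, followed by 1-D6 (26), 1-B (25), TT2 (23), B6ES (20) and 1-C3 (6). The lowest array set the score, so these counts describe how the members were chosen. The same split was present in Dnmt3b, the de novo DNA methyltransferase gene, at -0.76 and 0.43 in 1-A3 and 1-D6 against 3.65 and 4.22 in 1-B and 1-C3, with 4.57 and 5.07 in ES cells and -2.93 in MEF. It was also present in Lin28b, an inhibitor of let-7 maturation, at -0.51 and 0.67 against 1.98 and 1.77 (ES 1.88 and 1.85), and in Trh, the thyrotropin-releasing hormone gene, at -4.00 and 0.85 against 3.48 and 3.54 (ES 2.68 and 3.18). Cbx7, a Polycomb subunit gene, was lower than ES cells (3.34 and 2.88) in every iHAC1-iPS clone, at -0.81, -1.14, 0.47 and -1.74. Acvr2b, an activin receptor gene, varied little, from 1.38 to 2.11 in iHAC1-iPS clones and 1.69 to 2.63 in the other ES and iPS arrays. The members' SD among iHAC1-iPS clones had a median of 0.45, against 0.27 over all probes tested. The corresponding values were 0.59 against 0.40 among iHAC2-iPS clones and 0.22 against 0.22 among iHAC-free iPS lines.

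Threonine and glycine metabolism contributed Tdh, Gldc and Shmt1 from a list with 18 genes measured. Tdh, threonine dehydrogenase, was at 7.20 and 7.14 in ES cells and at -1.71, 3.14, 4.59 and 1.83 in iHAC1-iPS clones, from -5.38 in MEF. It was thus above MEF in every clone and below both ES lines in every clone. Its iHAC2-iPS levels (6.32, 6.53, 5.65 and 7.20) and iHAC-free iPS levels (7.17, 6.73, 6.98 and 6.66) were near those of ES cells. Gldc, the glycine decarboxylase gene, lay between 2.27 and 2.49 in iHAC1-iPS clones and at 3.30 and 3.57 in ES cells. Shmt1, which encodes cytosolic serine hydroxymethyltransferase, lay between 1.53 and 1.83 against 1.92 and 1.68. The transsulfuration genes Cth and Cbs were members as well. Cth, which encodes cystathionine gamma-lyase, was at 2.65, 4.07, 3.65 and 3.12 in iHAC1-iPS clones, above both ES lines (2.26 and 1.53). Cbs, cystathionine beta-synthase, was at -2.07, -1.64, -0.99 and -2.24, against -0.91 and -1.19.

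Some members, named here after their values were seen, varied little over the 9 arrays that the rule did not use. Mcm10, a replication initiation factor gene, was at 1.85 in MEF, 5.02 and 4.83 in ES cells, 4.12 to 4.65 in iHAC1-iPS clones, 4.48 to 4.98 in iHAC2-iPS clones and 4.58 to 4.80 in iHAC-free iPS lines. Recql4, a helicase gene, spanned 0.45 over those 9 arrays, and Ung, uracil-DNA glycosylase, spanned 0.66. Helb, the last member, is a DNA helicase gene and spanned 0.59. In MEF, 14 members were above the 75th percentile of the array, among them Rcor2 (2.41), Slc16a3 (2.23), Mcm10 (1.85), 2010317E24Rik (1.81) and Ung (1.17).

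Several members with high scores lie outside the pluripotency lists. Glod5, a glyoxalase domain gene, was at 1.52 and 1.92 in ES cells and 0.27 to 1.75 in iHAC1-iPS clones, not well above background in MEF. Enpp3, an ectonucleotide pyrophosphatase gene, was at 2.64 and 2.03 in ES cells and 2.66 to 3.39 in iHAC1-iPS clones. Pipox was at 2.17 and 1.20 against 1.81 to 2.69. The placental hormone genes Prl2c3 and Prl2c5 (proliferins) were at -0.78 and -0.50, and -0.33 and -0.08, in ES cells, and higher in every iHAC1-iPS clone (0.02 to 0.71 and 0.51 to 1.17). These belong to a family of near-identical genes, as do the urinary protein genes Mup6 and Mup4, and their probes may share transcripts. The remaining genes among the 20 highest scores were ENSMUST00000112580, 1700019D03Rik, 4931407G18Rik, AV333862, Olig2, Olig1, Ahsg and Msc. Ahsg, the fetuin gene, was at -1.23 and -1.19 in ES cells and -1.44 to 1.86 in iHAC1-iPS clones.

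Some members share a place or a sequence and are not independent. ENSMUST00000112580 lies 13984 bases from Slc2a3, and AV333862, ENSMUST00000094936 and Cnpy1 lie within 4834 bases of each other on chromosome 5. The probes of AY423051, X62895 and S57425 share runs of 37 to 51 bases, so the same transcripts may bind all 3. Chromosome X held 12 members (8%, against 3.79% of all genes on the array) and chromosome 16 held 11 (7.33% against 3.32%), while chromosome 8 held 2 (1.33% against 4.74%). These 3 were picked as the extremes. On chromosome 16, 2610318N02Rik, Ccdc116 and Ydjc lie within 27627 bases of each other, and Atf7ip2 lies 2042 bases from ENSMUST00000117220. For 45 members the array holds 73 further probes. Of the 44 that were well above background on all 6 arrays of the rule, 41 had a score of at least 1 and 27 reached the lowest member score. These 44 passed the detection step on the same arrays as the members, so their counts are no test of them. Of all 73, detected or not, 64 had a score above 0. Those below 0 included probes of Gpr98 (-1.72 and -0.15) and Nfasc (-1.10) that were well above background on all 6 arrays of the rule. Another probe of Gpr98, not well above background on any of these arrays, had -3.41.

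Olig1 and Olig2 form such a pair, 43329 bases apart on chromosome 16, and encode helix-loop-helix factors known from the oligodendrocyte lineage. Olig2 was at -5.69 in MEF, 0.42 and -0.69 in ES cells, 0.06, -0.03, 0.31 and -0.14 in iHAC1-iPS clones, -0.48, -1.43, -1.87 and -0.99 in iHAC2-iPS clones and -0.33, -0.36, -0.27 and -0.40 in iHAC-free iPS lines. In 20D17 it was at -8.06. Olig1 was likewise at -6.47 in 20D17, against 1.02 and 0.00 in ES cells and 1.15 to 2.57 in iHAC1-iPS clones. Neither gene was well above background in the retroviral line, and both were so in all 14 other ES and iPS arrays. Within 1000000 bases of the Olig2 probe, 28 other genes were detected in both ES lines. All 28 were well above background in 20D17, and their differences from the ES mean lay between -0.56 and 1.07. 20D17 is a single array, and this absence has no replicate check.

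Against the ES lines, 34 of 150 members passed the test in iHAC1-iPS clones (adjusted p under 0.05 and at least 2-fold in limma), 11 higher and 23 lower. Over all 31447 probes tested 14.3% passed, 6.88% higher and 7.38% lower. The rule used these arrays, so nothing is read from the member counts. The members farthest below the ES mean were Tdh (-5.21), Cpsf4l (-5.15), Cbx7 (-3.92), Spink3 (-3.76) and 4930500J02Rik (-3.57). Cpsf4l, which is related to a cleavage and polyadenylation factor, was at 3.20 and 2.45 in ES cells and at -2.68, -2.81, -1.71 and -2.10 in iHAC1-iPS clones, yet above its MEF level of -6.35 (not well above background). Those farthest above it were Slc38a5 (6.38), Esx1 (4.68), Pllp (4.39), Fcgr2b (4.19) and Pou5f1 (2.77). Slc38a5, an amino acid transporter gene, was at -1.38 and -1.62 in ES cells and at 3.13, 7.43, 5.08 and 3.90 in iHAC1-iPS clones. Esx1, an X-linked homeobox gene of the placenta, was at -0.07 and -2.68 against 3.75, 2.05, 3.43 and 4.01. Pllp, a myelin-associated membrane protein gene, was at -3.55 and -3.69 against 1.87, -0.54, 0.63 and 1.11, and Fcgr2b, an Fc receptor gene, at -4.27 and -4.33 against -0.44, -0.71, 0.03 and 0.71. For these 4 the iHAC1-iPS clones, rather than the ES lines, held the highest levels, so the label of an ES gene describes them least well.

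The 9 arrays that the rule did not use show how far the same genes were on elsewhere. A gene was counted as on when it was well above background and at least 2-fold above MEF. Of the 150 members, 126 (84%) were on in all 9 arrays, against 7.02% of all probes tested, a background that includes probes not above MEF in ES cells. Members on numbered 147 in 20D17. They numbered 135, 144, 139 and 138 in the iHAC2-iPS clones and 150, 144, 150 and 145 in the iHAC-free iPS lines. The nearer comparison is with the 976 ES-high genes that are not members. Of these, 95.8% were on in 20D17, 78.6%, 82.4%, 79.4% and 88.2% in 2-B1, 2-C6, 2-E and 2-N, and in the iHAC-free iPS lines (in the order of their clones of origin) 97.0%, 91.4%, 96.0% and 94.3%. The corresponding shares of members were 98% in 20D17, 90%, 96%, 92.7% and 92% in the iHAC2-iPS clones, and 100%, 96%, 100% and 96.7% in the iHAC-free iPS lines. The share was higher for the members on each of these arrays. The difference was not tested, because members and other genes share MEF and ES arrays with the rule.

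**Figure D2:**
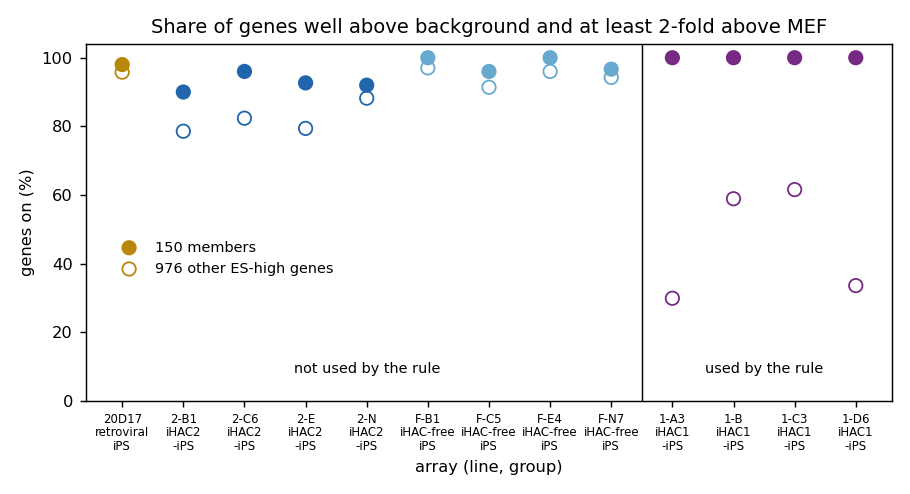
Share of genes (%) that were well above background and at least 2-fold above MEF on each array (line and group below the axis), for the 150 members (filled) and the 976 other ES-high genes (open). On the 9 arrays left of the line the members lie between 90% and 100% and the other genes between 78.6% and 97.0%, whereas the members' value of 100% right of it was fixed by the rule.

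The 24 members that were not on in all 9 arrays were off in 44 gene and array pairs among the iHAC2-iPS clones, 11 among the iHAC-free iPS lines and 3 in 20D17. In 33 of the 44 pairs, 8 of the 11 and all 3 the gene was not well above background. The share of probes well above background was 54.2% to 59.9% on the iHAC2-iPS arrays, 59.4% to 63.0% on the iHAC-free iPS arrays and 64.2% on the 20D17 array, and its part in these counts was not tested. Cnpy1 was on in 3 arrays, Mup4 and Ccdc116 in 4, and Msc and NAP045079-1 in 5. Msc, musculin, a helix-loop-helix factor gene, was off in all 4 iHAC2-iPS clones and in none of the iHAC-free iPS lines. Prtg was off in 2-N alone, and Smoc1 and Gbx2 were off in both 2-B1 and 2-E. With levels not well above background placed at the lowest signal well above background on their array, the widest ranges over the 9 arrays were those of Olig1 (at least 8.04), Gbx2 (at least 6.17), Olig2 (at least 5.59), Slc38a5 (5.28) and Gm3161 (5.10), the last at 0.94 in 2-C6 and between -1.21 and -4.16 in the other 8.

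In 20D17, 131 members lay within 2-fold of the ES mean, 15 below that range and 4 above it, with a median difference of -0.37. Over all probes tested 4.29% lay at least 2-fold below the ES mean and 6.42% at least 2-fold above it. The 4 above it were AY423051, X62895, S57425 and Scgb3a1, of which the first 3 share probe sequence.

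Against ES cells, 20 members passed in iHAC2-iPS clones, 8 higher and 12 lower, where 6.77% of all probes passed (3.49% higher and 3.28% lower). In iHAC-free iPS lines no member passed in limma, where 0.366% of all probes did (0.172% higher and 0.194% lower). At an unadjusted p under 0.05, 19 members (12.7%) differed there, against 20.5% of all probes. With normexp background correction 1 member passed. The ES arrays were used by the rule. The iHAC2-iPS and iHAC-free iPS arrays lay on other slides than the ES and iHAC1-iPS arrays. They were also processed with another version of the scanner software, so this batch and the group cannot be told apart there. The mean of the iHAC-free iPS lines was within 2-fold of the ES mean for 133 members, that of the iHAC2-iPS clones for 96 and that of the iHAC1-iPS clones for 91. The corresponding shares over all probes tested are not given, so these counts describe the members only. The median member difference from ES cells was -0.20, -0.26 and -0.27 in that order, and over all probes tested the medians were 0.02, 0.05 and 0.02. Ccdc116 and Spink3, well above background in all 4 iHAC-free iPS lines, differed there from the ES mean by -2.10 and -1.89, and Esx1 by 1.85. 4931407G18Rik was well above background in 2 of the 4 lines, and its mean has only a bound.

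The comparison of iHAC2-iPS clones with iHAC-free iPS lines used arrays that entered the rule only through the choice of each gene's brightest probe. It asks how the members differ between cells with and without iHAC2, which carries the reprogramming factors and the hairpin against p53. Of 150 members, 8 passed (5.33%), 3 higher and 5 lower in iHAC2-iPS clones. Over all probes tested 0.77% passed, 0.216% higher and 0.553% lower. The median difference was -0.01 over members and 0.05 over all probes tested. By less than 2-fold differed 117 members, a count given without the share over all probes. At an unadjusted p under 0.05, 46 members (30.7%) differed, against 18.6% of all probes. For both shares of members, all probes tested are an unmatched background. A probe entered it when well above background on only 1 array, and it includes probes not above MEF in ES cells. Members had to be detected on every array of the rule and lie well above MEF. The corresponding shares of the other ES-high genes were not computed, so nothing is read from the higher shares of members. The iHAC-free iPS lines descend from the iHAC2-iPS clones, and with the line of origin as a replicate block no member and no probe passed in limma (lowest adjusted p of a member 0.14), while 41 members and 4265 probes had an unadjusted p under 0.05. The count also rested on single arrays. It was 2 without 2-E and without any 1 iHAC-free iPS line, 5 without 2-B1 and 18 without 2-N.

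**Figure D3:**
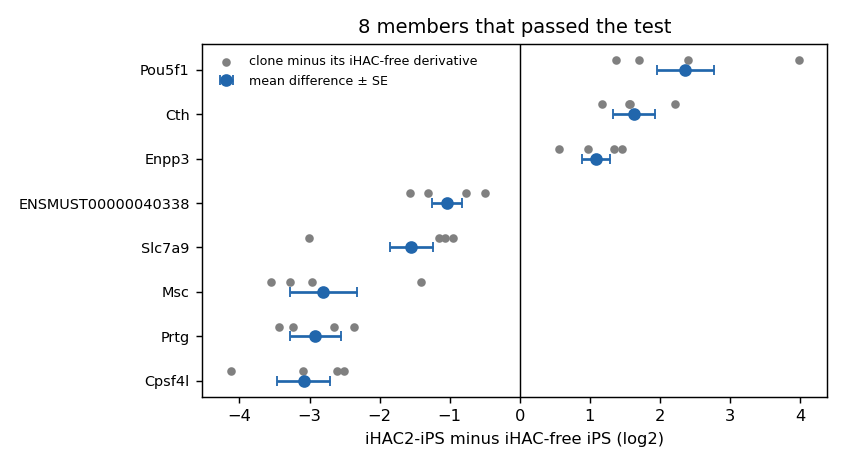
Difference in log2 level between iHAC-free iPS and iHAC2-iPS cells for the 8 members that passed the test: the mean difference (blue, with its SE from limma) and each clone minus its own iHAC-free derivative (grey). Every grey point lies on the same side of 0 as the mean of its gene, with Pou5f1, Cth and Enpp3 higher and the other 5 lower in iHAC2-iPS clones.

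Prtg, protogenin, an immunoglobulin superfamily receptor gene of the early embryo, and Cpsf4l were lower in iHAC2-iPS clones with the lowest adjusted p of the 8. Prtg was at 0.64, -0.08, -0.29 and -0.74 in iHAC2-iPS clones and at 3.29, 2.29, 2.95 and 2.70 in iHAC-free iPS lines. The groups did not overlap, and the difference was -2.92 (SE 0.36, adjusted p = 0.005, limma). Its levels in ES cells (2.59 and 3.24), 20D17 (3.61) and iHAC1-iPS clones (1.80, 2.20, 3.17 and 1.79) all lay above those of the iHAC2-iPS clones. Both of its other probes gave lower values in iHAC2-iPS clones, by -2.96 and -2.57. Cpsf4l was at -0.22, -0.77, -1.78 and 0.13 in iHAC2-iPS clones and at 2.40, 2.33, 2.35 and 2.63 in iHAC-free iPS lines, a difference of -3.09 (SE 0.37, adjusted p = 0.0042, limma). Its other probe, not well above background on any array of the rule, gave 0.11. These 2 genes passed in each of 9 fits that left out arrays, and in no fit with the replicate block. The Prtg probe lies at chr9:72763807-72763866 and the Cpsf4l probe at chr11:113559557-113559616 in mm9, the build of the array files.

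Msc was at -6.10, -4.76, -6.75 and -6.72 in iHAC2-iPS clones, not well above background in any, and at -2.54, -3.35, -3.46 and -3.76 in iHAC-free iPS lines. It was at least 2.78-fold higher in the iHAC-free iPS lines (adjusted p = 0.023, limma). After normexp background correction the difference was -0.52 and did not pass. ENSMUST00000040338 was at 0.25, 1.15, 0.56 and 1.38 in iHAC2-iPS clones and between 1.81 and 1.93 in iHAC-free iPS lines (difference -1.04, SE 0.21, adjusted p = 0.039, limma). Slc7a9, a cystine and amino acid transporter gene, was well above background in 2 of 4 iHAC2-iPS clones, at levels from -6.23 to -4.50 over all 4, and between -3.80 and -3.22 in iHAC-free iPS lines (difference -1.55, SE 0.31, adjusted p = 0.037, limma). The levels in 2-B1 and 2-N were not well above background, and the difference was -1.07 when both were set to the dimmest signal called well above background on their array. After normexp background correction it was -0.22 (adjusted p = 0.187, limma) and did not pass.

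Pou5f1 was higher in iHAC2-iPS clones, at 4.93 ± 1.08 (SD, n = 4), than in the iHAC-free iPS lines at 2.56 ± 0.15 (SD, n = 4), which had lost the iHAC with its Oct4 copies. The difference was 2.36 (SE 0.40, adjusted p = 0.022, limma), and the 4 iHAC2-iPS clones all lay above the iHAC-free iPS lines. The part of the lost Oct4 copies in this difference was not tested. Cth was at 3.79, 4.53, 3.75 and 4.31 in iHAC2-iPS clones and at 2.22, 2.32, 2.57 and 2.76 in iHAC-free iPS lines, a difference of 1.63 (SE 0.30, adjusted p = 0.029, limma). Enpp3 was at 3.49, 3.35, 3.33 and 2.97 against 2.14, 1.90, 2.35 and 2.41 (1.08, SE 0.20, adjusted p = 0.029, limma), and its other probes, 1 of them not well above background on the arrays of the rule, gave higher values in iHAC2-iPS clones by 1.19 and 1.30. Neither the differences of Cth and Enpp3 nor that of Pou5f1 passed without 2-E or with the replicate block.

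**Figure D4:**
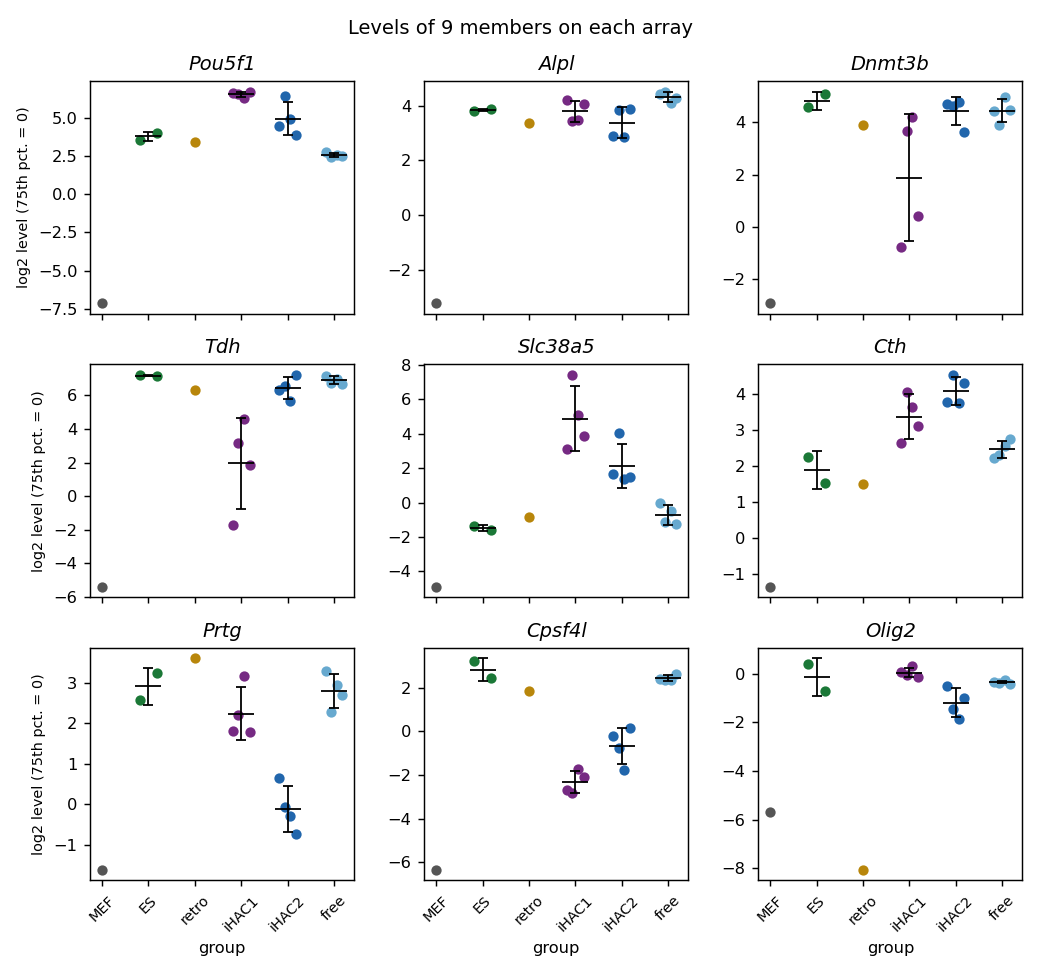
Log2 levels (75th percentile of each array = 0) of 9 members on each array by group, with each point 1 array and bars giving the mean ± SD where a group has more than 1 array. Pou5f1 is highest in iHAC1-iPS clones, Dnmt3b and Tdh spread widely among them, Slc38a5 is higher there than in ES cells, Prtg and Cpsf4l are low in iHAC2-iPS clones, and Olig2 is low in 20D17.

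On the gene lists, no member other than Pou5f1 passed between iHAC-free iPS and iHAC2-iPS cells. Over the whole lists, 0 of 27 tested pluripotency transcription factors were higher and 1 was lower (median -0.66), 0 and 1 of 28 pluripotent cell marker genes (median -0.25), 0 and 0 of 26 genes of DNA methylation and chromatin (median -0.29), 0 and 0 of 18 genes of threonine, glycine and one-carbon metabolism (median 0.16), 0 and 0 of 15 RNA-binding and translation regulators (median -0.48), and 0 and 1 of 37 genes of growth factor signalling (median -0.17). Of the 4 factors carried by the iHAC, 2 were higher (Pou5f1 by 2.36 and Myc by 4.16) and 1 was lower (Klf4, -2.61). Sox2 differed by -1.63 and did not pass. The germline list (28 measured, 27 tested) and the 2 epithelial lists (32 and 26 measured) held no member, while 17, 21 and 18 of their genes were ES-high. Of all ES-high genes 13.3% were members. The lists were chosen with earlier results of these data known, so nothing is read from these counts. The germline list gave 0 higher and 2 lower of 27 tested, the epithelial adhesion and polarity list 1 and 1 of 32, and the list of epithelial keratins, proteases, vesicle traffic and regulators 0 and 0 of 25.

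Markers of other cells were read on the same arrays. The median level of 19 fibroblast markers was 3.21 in MEF, 2.25 to 3.06 in iHAC1-iPS clones, 0.43 and 1.72 in the ES lines, 2.39 in 20D17, 0.63 to 2.05 in iHAC2-iPS clones and 1.45 to 1.95 in iHAC-free iPS lines. At least 18 of the 19 were well above background on every array, and none is a member. Between iHAC-free iPS and iHAC2-iPS cells 0 fibroblast markers passed, while 1 trophectoderm marker was higher and 3 were lower, of 10. The part of these cells in the members' levels was not tested. The pluripotent cell markers (8 measured) had a median level of 3.21 and 3.39 in ES cells, -2.83 to 0.67 in iHAC1-iPS clones, 1.94 to 2.96 in iHAC2-iPS clones and 3.15 to 3.29 in iHAC-free iPS lines. 3 of these markers are members.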

How the data were processed

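Values came from 16 Agilent arrays with 60-base probes. The authors deposited the scanner software's processed intensity for each spot, already corrected for background, and a table of normalized log2 values of the same arrays, which served as an alternative. Each level was log2 of the processed intensity minus the array's 75th percentile, with control spots left out and spots of a probe averaged. Spots flagged as outliers were left out except in the choice of members, which followed the rule as stated. The number of arrays limits the precision.

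The members and gene lists were chosen with earlier results of these data known. Genes named are the 20 with the highest score, those next to the threshold, members on a list, members that passed, and the extremes against ES, over the arrays not used and in MEF; others were chosen after their values were seen. The values of 1 member on a list are not reported here. One linear model over 16 arrays and 6 groups was fitted with limma 3.58.1 (R 4.3.3) to 31447 of 41174 probes, those well above background on at least 1 array, with Benjamini-Hochberg adjustment. A call needed an adjusted p under 0.05 and a 2-fold difference. The script was tested on simulated data.

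Pairing came from the study's list of parental clones, which names the iHAC2-iPS clone of each iHAC-free iPS line. Deviations from the group means of the same origin correlated at -0.07, -0.22, 0.03 and 0.08. Arrays lay on 4 slides and were processed with 2 versions of the scanner software. Each group of 4 iHAC2-iPS clones or iHAC-free iPS lines lay equally on 2 of the slides. Within these slides the median member difference was -0.09 and 0.02. Probe positions are in mm9; current symbols came from RefSeq accessions, found for 121 members, and the files' names were kept. Exon and UTR annotation of mm9 was not used here.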

Additional observations from a re-analysis of the deposited data

Results flagged for a closer look

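In 40 members whose levels were examined by group, 120 groups of 4 arrays were tested for 1 array far from the other 3, and 7 were found, where chance gives about 1 in 20 groups, or 6. Values are log2 levels. Among iHAC1-iPS clones, Nr0b1 was at -1.36 in 1-A3, against 2.28 to 2.55 in the other 3. AV333862 was at -0.41 in 1-B, against 1.33 to 1.45, and ENSMUST00000040338 at 2.10 in 1-B, against 2.31 to 2.34. Among iHAC2-iPS clones, 2-N stood apart at Olig1 (0.32 against 2.08 to 2.18), Mybl2 (5.90 against 3.96 to 4.22) and Dnmt3b (3.61 against 4.64 to 4.79), and 2-C6 at Ahsg (3.08 against -1.28 to -0.78). No group of iHAC-free iPS lines was among the 7.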

How the results depend on the processing

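Between iHAC-free iPS and iHAC2-iPS cells, where 8 members passed, the count was 3 when other groups were left out of the fit. It was 5 with the slide as a block and 5 without 2-C6 and F-C5 together (chosen after seeing the data). With other groups left out and the line of origin as a replicate block it was 0. It ranged from 2 to 18 when each array was left out in turn. With normexp background correction 12 passed, of which 6 were among the 8. The median member difference moved by less than the spread between the 4 clone pairs under every alternative run. The descriptive counts against ES cells ranged from 18 to 40 for iHAC1-iPS clones (34 in full) and from 2 to 31 for iHAC2-iPS clones (20 in full) when each array was left out. The count for iHAC2-iPS clones was 0 when other groups were left out of the fit, and that for iHAC-free iPS lines was 1 with normexp and 0 under the other alternatives. Of the 150 members, 96 were chosen again with normexp, 144 with quantile normalization, 133 with the median over the probes of a gene, 135 without the detection step and 116 to 147 when each ES or iHAC1-iPS array was left out, the lowest without 1-A3. With alternatives chosen after seeing the data, 149 were chosen again without flagged spots and 129 with dim MEF levels at the lowest signal well above background. Members on in all 9 arrays that the rule did not use numbered 126, and 105, 126 and 106 with normexp, quantile normalization and a 4-fold threshold. The causes were not tested. Dim probes limit the folds over MEF for 47 members.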
